A study of Mus musculus with 8 samples.

Results

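The liver and the colon of control mice were compared gene by gene, as 1 library of each organ. The comparison covered the protein-coding genes that reached 5 FPKM (fragments per kilobase of transcript, scaled to the mapped total of each library) in at least 1 of the 2 libraries, which were 8461 of the 21949 protein-coding genes and of the 45777 genes listed. Both libraries belong to a mouse study of non-alcoholic steatohepatitis (NASH), a fatty liver disease with inflammation, in which extracellular vesicles (EVs) from bovine colostrum were evaluated. The study holds 8 libraries, of liver and colon from 4 groups: NASH, EVs low dose, EVs high dose, and control. The labels of the EV groups give no amount, route or time. The labels name the control group without a treatment, diet, strain, sex or age, and do not say how many animals a library holds. With 1 library per organ no spread between animals can be given, so every value below describes these libraries and no test was possible. The files give no read depth, so no counting interval is given either. Differences are log2((liver FPKM + 1)/(colon FPKM + 1)), positive where liver was higher, a scale that shrinks the ratios of low genes. No log2 ratio is given for a gene listed at 0 in either library. List medians include such genes, and their ratios there depend on the added 1 FPKM and the level in the other organ alone.

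Liver and colon both come from the endoderm, the inner layer of the embryo that lines the gut tube. Hepatocytes, the main cells of the liver, secrete most plasma proteins into the blood, process amino acids, sugars, fats and foreign compounds, and make bile. The colon is a tube of absorptive and goblet cells renewed from crypts, covered by mucus and surrounded by connective tissue and smooth muscle.

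Each library carried the defining genes of the organ on its label. Of 8 hepatocyte genes used as a check, 7 were at least 4-fold higher in liver, and the other, Hnf4a, a nuclear receptor of both organs, lay within 2-fold. Alb, which encodes serum albumin, had 19466 FPKM in liver and 0.782 FPKM in colon. Cdx2, the homeobox factor that sets intestinal identity, was listed at 0 in liver and had 33.4 FPKM in colon. Epcam, an adhesion protein of gut epithelium, had 0.276 FPKM in liver and 627 FPKM in colon.

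The largest groups of genes were those of similar level and those higher in colon. At least 4-fold higher in liver were 689 genes, 8.14% of the genes compared. At least 4-fold higher in colon were 1711 genes, 20.2% of the genes compared. Within 2-fold lay 3469 genes, 41% of the genes compared. A further 298 genes (3.52%) were between 2-fold and 4-fold higher in liver, and 2294 (27.1%) were between 2-fold and 4-fold higher in colon. The median gene had a log2 ratio of -0.94, so it was 1.92-fold higher in colon on this scale. Relative to that median, 11.4% of genes were at least 4-fold higher in liver, 10.5% were at least 4-fold higher in colon and 58.4% lay within 2-fold. Values below are as deposited, and the position relative to the median gene is stated where it changes a direction. Counts at least 4-fold apart also change on that scale, and are given on it for some lists only. Among the genes at least 4-fold apart, 144 of those higher in liver were listed at 0 in colon and 267 of those higher in colon were listed at 0 in liver. With a minimum of 5 FPKM and 1 FPKM added, any gene kept and listed at 0 in 1 library is at least 4-fold apart. For such genes the filter sets the class, so a list made of them could not come out otherwise. At least 64-fold apart were 198 genes higher in liver and 122 higher in colon. The minimum of 5 FPKM separated near neighbours: the 10 genes just inside it had 5.001 to 5.017 FPKM in the higher library, and the 10 just outside it had 4.992 to 4.999 FPKM.

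**Figure D1:**
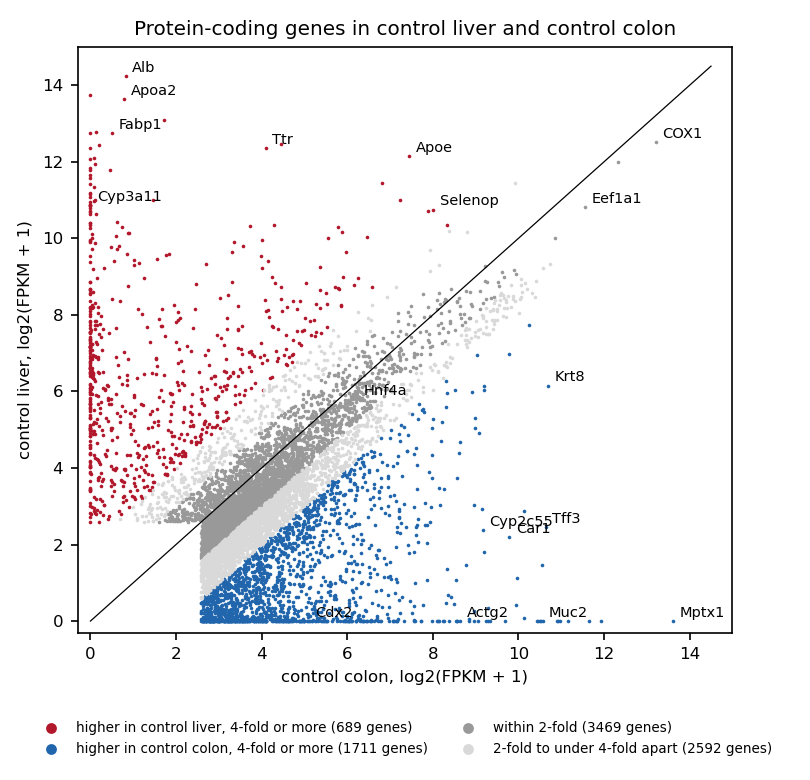
Level of each of 8461 protein-coding genes in control liver (vertical axis) and control colon (horizontal axis), both as log2(FPKM + 1), 1 point per gene, with the line of equal level. The 689 red genes lie far above the line and the 1711 blue genes far below it, and many points of both colours sit on an axis because the other organ lists them at 0.

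RNA was concentrated in fewer genes in liver than in colon. The 10 highest genes held 21.1% of the protein-coding FPKM in liver and 12.4% in colon, and the 100 highest held 55.0% in liver and 34.4% in colon. To reach 50% of that total took 71 genes in liver and 270 genes in colon. Genes at least 4-fold higher in liver held 63.9% of the protein-coding FPKM in liver and 1.33% in colon. Genes at least 4-fold higher in colon held 1.22% in liver and 34.1% in colon. FPKM is a share of 1 library, so a high share of a few genes lowers the values of all others in that library, and how far this set the median ratio was not tested. Protein-coding genes held 42.9% of all FPKM in liver and 41.0% in colon.

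**Figure D2:**
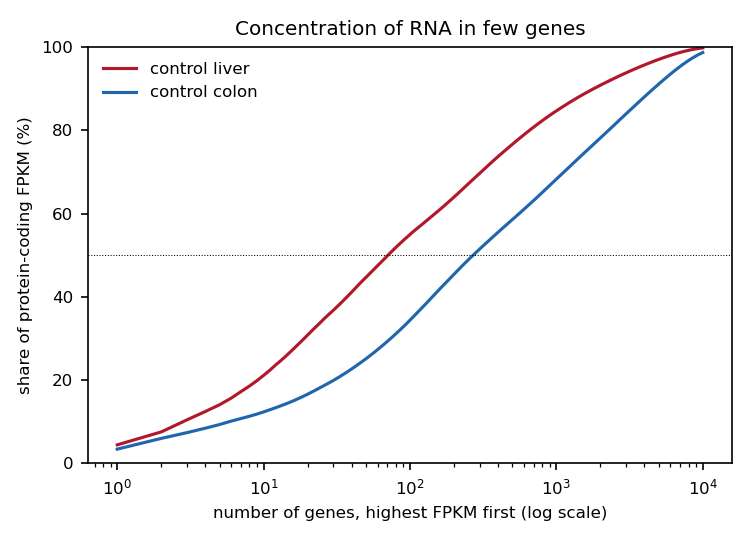
Cumulative share of protein-coding FPKM (vertical axis, percent) against the number of genes counted from the highest down (horizontal axis, log scale) in control liver and control colon. The liver curve lies above the colon curve and crosses the dotted line at 50% after 71 genes, against 270 genes in colon.

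The proteins that hepatocytes send into the blood set the liver apart most strongly. Of 34 plasma carrier and acute phase genes, 33 reached the minimum and all 33 were at least 4-fold higher in liver, with a median log2 ratio of 8.26. The list held 16.3% of the protein-coding FPKM in liver and 0.0177% in colon. It leaves out the acute phase genes Saa1, which was higher in colon, and Saa3, under 4-fold higher in liver. Both were placed in the list of crypt and surface defence, so the uniform count depends on how members were assigned. Serpina3k, a serine protease inhibitor of the plasma, had 7065 FPKM in liver and 0.0899 FPKM in colon. Trf, which encodes the iron carrier transferrin, had 5661 FPKM in liver and 21.0 FPKM in colon, a log2 ratio of 8.01. Ttr, the carrier of thyroxine and retinol-binding protein, had 5281 FPKM in liver and 16.2 FPKM in colon. These tissues were measured whole, so fewer cells of a type and less RNA per cell cannot be told apart.

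Lipoprotein genes were also on the liver side. Of 16 genes for apolipoproteins and lipoprotein assembly, 15 were at least 4-fold higher in liver and 1, the phospholipid transfer protein gene Pltp, lay within 2-fold, with a median log2 ratio of 7.17. Apoa2, a protein of high-density lipoprotein, had 12692 FPKM in liver and 0.732 FPKM in colon. Apoa1, the main protein of the same particle, had 5546 FPKM in liver and 0.158 FPKM in colon. Apoe, which binds the receptors that clear lipoprotein remnants, differed less, with 4519 FPKM in liver and 174 FPKM in colon. Apoc3, an inhibitor of triglyceride clearance, had 1886 FPKM in liver and was listed at 0 in colon. The group held 8.37% of the protein-coding FPKM in liver and 0.0531% in colon.

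Clotting and complement genes were mostly higher in liver. Of 27 coagulation and fibrinolysis genes 25 reached the minimum, of which 21 were at least 4-fold higher in liver and 2 at least 4-fold higher in colon, with a median log2 ratio of 6.80. Fgb, the beta chain of fibrinogen, had 2019 FPKM in liver and 0.0659 FPKM in colon. F2, which encodes prothrombin, had 595 FPKM in liver and 0.239 FPKM in colon. The exceptions, which fall under 4-fold relative to the median gene, were F3, which starts clotting as tissue factor, and Plau, urokinase. F3 had 1.05 FPKM in liver and 13.8 FPKM in colon, and Plau had 0.512 FPKM in liver and 8.09 FPKM in colon. Of 25 complement genes 24 reached the minimum, of which 19 were at least 4-fold higher in liver, 1 at least 4-fold higher in colon and 4 within 2-fold. C3, on which the complement pathways converge, had 897 FPKM in liver and 10.8 FPKM in colon. Cfb, a factor of the alternative pathway, had 329 FPKM in liver and 25.4 FPKM in colon. The exception was Cfd, factor D, also an adipocyte marker, with 0.203 FPKM in liver and 27.7 FPKM in colon. The 4 within 2-fold were C1qa, C1qb and C1qc, which macrophages make, and Cfp, properdin.

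Hormone-like products of the liver followed the same direction. Of 23 such genes 19 reached the minimum, of which 18 were at least 4-fold higher in liver and 1, Hgfac, lay within 2-fold. Hamp, which encodes the iron hormone hepcidin, had 403 FPKM in liver and was listed at 0 in colon. Hamp2, its near-identical neighbour in mouse, had 169 FPKM in liver and was listed at 0 in colon, and the split of reads between both copies is uncertain. Selenop, the selenium transport protein, had the highest colon level among the members named, with 1724 FPKM in liver and 258 FPKM in colon.

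The major urinary proteins, pheromone carriers that mouse liver secretes for excretion in urine, were the largest family of this kind. Of 22 members 20 reached the minimum, all 20 were at least 4-fold higher in liver, and all 22 were listed at 0 in colon. With 0 in colon, the filter set the 4-fold class of these 20. Mup3 had 13629 FPKM, Mup7 had 6924 FPKM and Mup20 had 5256 FPKM in liver. Together the family held 13.8% of the protein-coding FPKM in liver. The copies are nearly identical, so the family sum is firmer than the value of any copy.

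Promoters of 3 of these strongly liver-biased genes are shown because they hold the letters GTTAAT on either strand, whose share by class is given with the promoter composition. Each line gives 150 bases before and 50 after the annotated start, from RefSeq on GRCm38.p6, read 5′ to 3′ on the strand of the gene. Capitals mark those letters and TATAAA, the core of a TATA box. Alb lies at chr5:90460720-90460919, plus strand, Fgb at chr3:83049814-83050013, minus strand, and Fabp1, which encodes a fatty acid carrier of hepatocyte cytoplasm, at chr6:71199729-71199928, plus strand.
Alb: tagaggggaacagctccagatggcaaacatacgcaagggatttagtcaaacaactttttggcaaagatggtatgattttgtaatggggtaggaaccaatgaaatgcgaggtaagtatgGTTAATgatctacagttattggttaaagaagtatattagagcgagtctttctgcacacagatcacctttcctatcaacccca
Fgb: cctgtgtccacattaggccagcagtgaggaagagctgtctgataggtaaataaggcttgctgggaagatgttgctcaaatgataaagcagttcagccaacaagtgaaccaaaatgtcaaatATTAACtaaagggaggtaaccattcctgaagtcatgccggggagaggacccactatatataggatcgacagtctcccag
Fabp1: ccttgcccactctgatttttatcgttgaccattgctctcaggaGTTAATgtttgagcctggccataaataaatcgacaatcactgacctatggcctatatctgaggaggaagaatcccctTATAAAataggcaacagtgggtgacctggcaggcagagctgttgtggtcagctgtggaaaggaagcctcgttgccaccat
The match began at position -32 from the start in Alb, at -29 in Fgb and at -107 in Fabp1, which also held TATAAA at -30.

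The colon made a different set of secreted proteins, led by mucus. All 23 genes of the goblet cell and mucus list were at least 4-fold higher in colon, and 19 of them were listed at 0 in liver. Their median log2 ratio of -5.45 fell on a gene at 0 in liver, so it reflects the colon level and the added 1 FPKM. The list held 0.00335% of the protein-coding FPKM in liver and 5.28% in colon. Clca1, a secreted metalloprotease of goblet cells that processes mucus, was listed at 0 in liver and had 3915 FPKM in colon. Zg16, a lectin that binds bacteria in mucus, was listed at 0 in liver and had 3236 FPKM in colon. Muc2, the gel-forming mucin of the gut, was listed at 0 in liver and had 1519 FPKM in colon. Agr2, a protein disulfide isomerase needed to fold Muc2, was listed at 0 in liver and had 2303 FPKM in colon. Tff3, a trefoil peptide of goblet cells, was detected in both, with 4.48 FPKM in liver and 1604 FPKM in colon.

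Defence genes of crypt and surface were nearly as uniform. Of 22 members 18 reached the minimum, and 16 of these were at least 4-fold higher in colon. The other 2 were Pigr and Saa3. Pigr had 178 FPKM in liver and 406 FPKM in colon. Saa3 went the other way, with 5.99 FPKM in liver and 1.05 FPKM in colon, which is at least 4-fold higher in liver relative to the median gene. Mptx1, a secreted pentraxin of the intestine, was the highest protein-coding gene in colon at 12617 FPKM and was listed at 0 in liver. Ang4, an antibacterial ribonuclease, was listed at 0 in liver and had 2004 FPKM in colon. Lypd8, which keeps flagellated bacteria from the colonic epithelium, was listed at 0 in liver and had 1937 FPKM in colon. Retnlb, a goblet cell protein of the resistin family, was listed at 0 in liver and had 1386 FPKM in colon. Saa1, an acute phase gene usually named with liver, had 29.2 FPKM in liver and 542 FPKM in colon, a log2 ratio of -4.17. The list held 0.0502% of the protein-coding FPKM in liver and 5.76% in colon.

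Peptide hormones of the enteroendocrine cells, the scattered endocrine cells of the gut lining, were lower in amount. Of 17 genes 11 reached the minimum, and all 11 were at least 4-fold higher in colon, 9 of them relative to the median gene. Of the 17 genes, 15 were listed at 0 in liver, where the filter sets the class of a gene kept. Pyy, which encodes the satiety peptide YY, was listed at 0 in liver and had 91.5 FPKM in colon. Insl5, a hormone of distal colon cells, was listed at 0 in liver and had 43.7 FPKM in colon. Gcg, the source of glucagon-like peptides in the gut, was listed at 0 in liver and had 38.9 FPKM in colon.

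**Figure D3:**
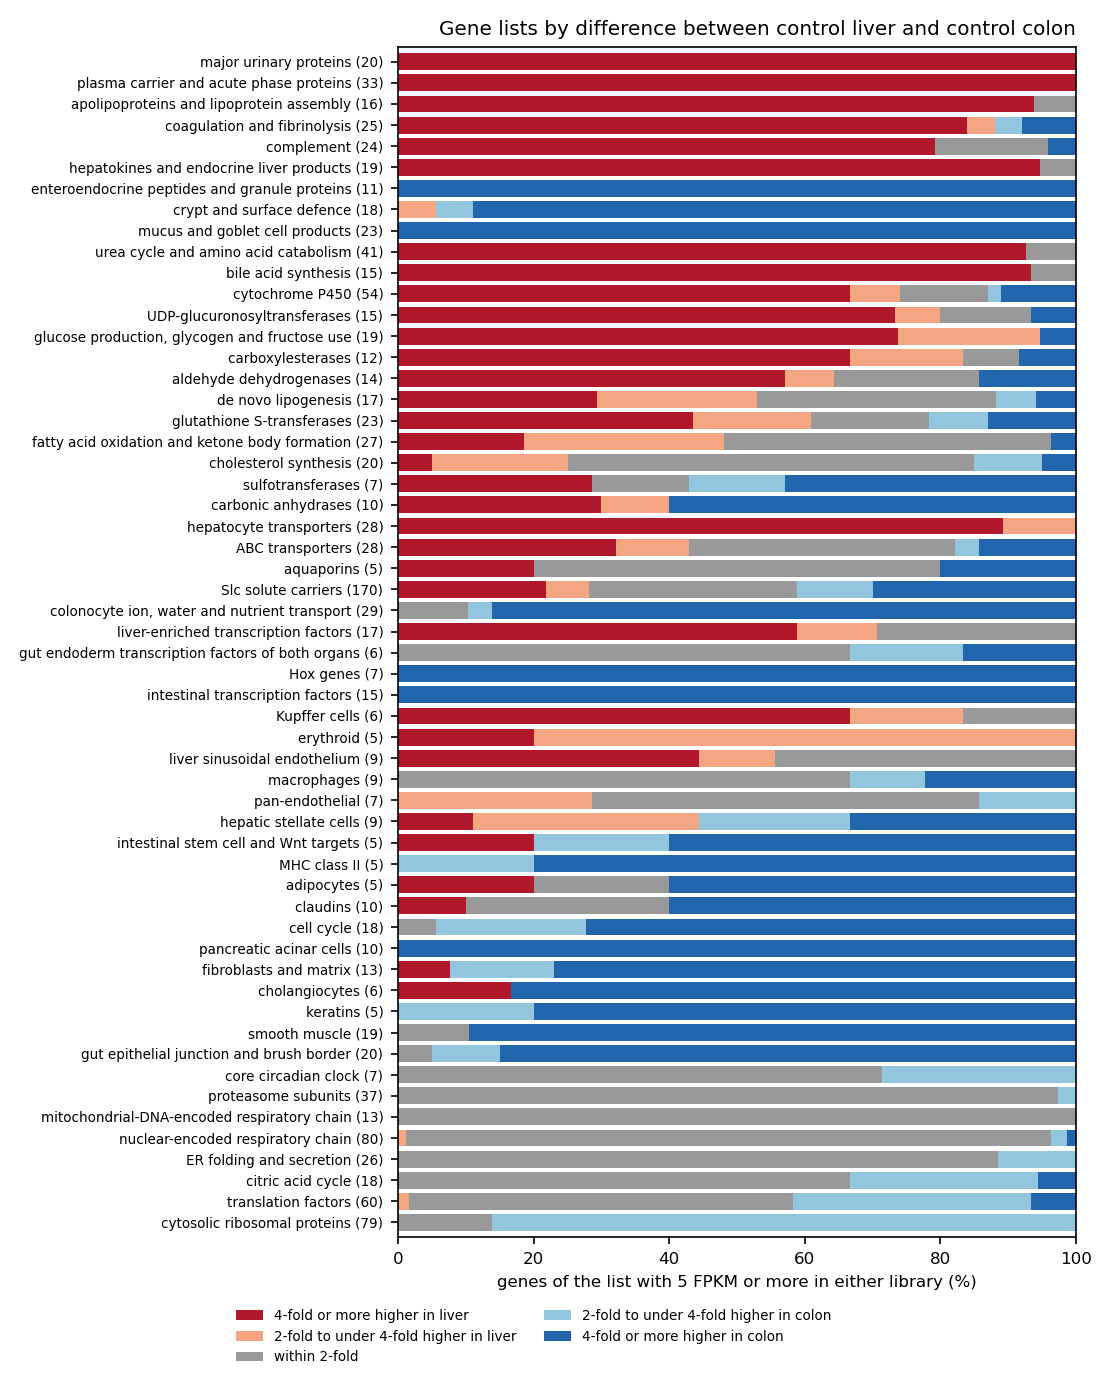
Gene lists with 5 or more members at or above 5 FPKM (number in brackets), shown as the percent of those members in each class of difference between control liver and control colon, from higher in liver on the left to higher in colon on the right. Plasma proteins, amino acid catabolism and bile acid synthesis are nearly all red, mucus, Hox and intestinal factor genes are all blue, and nearly all genes of the respiratory chain and proteasome lie within 2-fold as deposited.

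Enzymes of amino acid breakdown and nitrogen disposal were close to wholly biased to liver. All 41 genes of the list reached the minimum, of which 38 were at least 4-fold higher in liver and 3, Glul, Oat and Sdsl, within 2-fold, with a median log2 ratio of 5.72. Cps1, the entry enzyme of the urea cycle, had 892 FPKM in liver and 0.593 FPKM in colon. Ass1, which forms argininosuccinate in the cycle, had 1001 FPKM in liver and 15.1 FPKM in colon. Bhmt, which remethylates homocysteine with betaine, had 933 FPKM in liver and 0.0784 FPKM in colon. Hpd, of tyrosine breakdown, had 1031 FPKM in liver and 45.5 FPKM in colon. Glul, which makes glutamine from ammonia, had 190.3 FPKM in liver and 148 FPKM in colon.

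Bile acid genes were as uniform. Of 15 members 14 were at least 4-fold higher in liver and 1, Cyp39a1, lay within 2-fold, with a median log2 ratio of 5.33. Cyp8b1, the sterol 12-alpha-hydroxylase that directs synthesis towards cholic acid, had 141 FPKM in liver and was listed at 0 in colon. Slc27a5, whose product activates bile acids for conjugation, had 331 FPKM in liver and was listed at 0 in colon. Scp2, a peroxisomal thiolase and sterol carrier, was present in both, with 1155 FPKM in liver and 57.4 FPKM in colon.

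Genes that release or store glucose were also mostly on the liver side. Of 19 members 14 were at least 4-fold higher in liver and 1 was at least 4-fold higher in colon. G6pc, the phosphatase that frees glucose for the blood, had 258 FPKM in liver and was listed at 0 in colon. Fbp1, of gluconeogenesis, had 428 FPKM in liver and 0.836 FPKM in colon. Pck1, which commits carbon to the same pathway, was detected well in both organs, with 287 FPKM in liver and 40.2 FPKM in colon. Its mitochondrial counterpart Pck2 was the member higher in colon, with 0.426 FPKM in liver and 7.16 FPKM in colon, which is under 4-fold relative to the median gene.

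Fat oxidation, cholesterol synthesis and fat synthesis had list medians nearer 0 as deposited. Of 27 genes for fatty acid oxidation and ketone body formation, 5 were at least 4-fold higher in liver, 1 was at least 4-fold higher in colon and 13 lay within 2-fold. Relative to the median gene 11 were at least 4-fold higher in liver and 5 lay within 2-fold, and the median log2 ratio of 0.95 became 1.89. Oxct1, which is needed to use ketone bodies as fuel, was the member higher in colon, with 1.05 FPKM in liver and 60.9 FPKM in colon, a log2 ratio of -4.92. Acaa2, a thiolase of mitochondrial fat oxidation, had 496 FPKM in liver and 75.0 FPKM in colon, a log2 ratio of 2.71. Cholesterol synthesis had 12 of 20 genes within 2-fold and a median log2 ratio of -0.12, which relative to the median gene became 0.82, so its direction depends on the scaling. Of 17 lipid synthesis genes 5 were at least 4-fold higher in liver, 1 at least 4-fold higher in colon and 6 within 2-fold, and relative to the median gene 9 were at least 4-fold higher in liver. The stearoyl-CoA desaturases among them went opposite ways. Scd1 had 681 FPKM in liver and 16.7 FPKM in colon, a log2 ratio of 5.27. Scd2 had 1.22 FPKM in liver and 91.7 FPKM in colon, a log2 ratio of -5.38.

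The enzymes that modify drugs and steroids were mostly higher in liver, with some members of a family higher in colon. At least 4-fold higher in liver were 66.7% of the cytochrome P450 and 73.3% of the glucuronosyltransferase genes kept, against 8.14% of the genes compared. At least 4-fold higher in colon were 11.1% and 6.67%, against 20.2%, so colon-biased members were fewer than among all genes. Of 98 cytochrome P450 genes 54 reached the minimum, of which 36 were at least 4-fold higher in liver, 6 at least 4-fold higher in colon and 7 within 2-fold. Cyp2e1, which oxidizes ethanol and small solvents, had 2039 FPKM in liver and 1.73 FPKM in colon. Cyp3a11, a main oxidase of drugs in mouse liver, had 1859 FPKM in liver and was listed at 0 in colon. Cyp2c55 ran the other way, with 4.16 FPKM in liver and 579 FPKM in colon, as did its neighbour Cyp2c65, listed at 0 in liver and with 30.7 FPKM in colon. Of 15 glucuronosyltransferases that reached the minimum, 11 were at least 4-fold higher in liver and 1 at least 4-fold higher in colon. Ugt2b5, which attaches glucuronic acid, had 465 FPKM in liver and 8.83 FPKM in colon. The exception was Ugt1a7c, with 0.322 FPKM in liver and 64.4 FPKM in colon, and since Ugt1a genes share exons the split of reads among them is uncertain.

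Glutathione, sulfate and ester enzymes were mixed to differing degrees. Of 23 glutathione S-transferase genes 10 were at least 4-fold higher in liver, 3 at least 4-fold higher in colon and 4 within 2-fold. Relative to the median gene these counts were 13, 2 and 3. Gsta3, a cytosolic transferase, had 1283 FPKM in liver and 12.3 FPKM in colon. Those higher in colon as deposited were Gsto1 and the membrane-bound Mgst2 and Mgst3. Mgst2 was listed at 0 in liver and had 108 FPKM in colon. Mgst3 had 20.1 FPKM in liver and 392 FPKM in colon. Of 7 sulfotransferases 2 were at least 4-fold higher in liver and 3 at least 4-fold higher in colon. Sult2a8, which sulfates bile acids in mouse, had 373 FPKM in liver and was listed at 0 in colon. Sult1b1, which sulfates phenols, had 10.2 FPKM in liver and 97.7 FPKM in colon. Of 12 carboxylesterases 8 were at least 4-fold higher in liver, among them Ces3a with 1345 FPKM in liver and listed at 0 in colon, while Ces2c had 10.3 FPKM in liver and 124 FPKM in colon. Of 14 aldehyde dehydrogenases 8 were at least 4-fold higher in liver and 2, Aldh18a1 and Aldh1b1, at least 4-fold higher in colon, 1 of them relative to the median gene.

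Carbonic anhydrases, which interconvert carbon dioxide and bicarbonate, split by isoform. Of 10 genes 3 were at least 4-fold higher in liver and 6 at least 4-fold higher in colon. Car3, a slow cytosolic form, had 1312 FPKM in liver and 18.6 FPKM in colon. Car1 had 3.57 FPKM in liver and 884 FPKM in colon. Car2 had 1.11 FPKM in liver and 372 FPKM in colon. Car4, anchored to the cell surface, was listed at 0 in liver and had 143 FPKM in colon.

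Pairs of related genes, of enzymes, carriers and transcription factors, were set side by side, each as a share of the FPKM of both. In 20 of 24 pairs the form known from liver was the larger in liver and the other form the larger in colon. The minimum of 5 FPKM was not applied to pairs, and in some of the 20 both members were under it in 1 organ. In colon these were Arg1 and Arg2 (1.18 and 2.38 FPKM), Gys2 and Gys1 (0 and 3.63 FPKM), and Cps1 and Cad (0.593 and 4.54 FPKM). In liver they were Gata4 and Gata6 (3.05 and 1.15 FPKM). The share of the liver form was higher in liver in 24 of 24 pairs. The forms had been assigned to liver from textbook knowledge and with earlier results of these data in view. Pklr made up 84.0% of the pyruvate kinases Pklr and Pkm in liver and 3.50% in colon. Mat1a, which makes the methyl donor S-adenosylmethionine, made up 96.8% of Mat1a and Mat2a in liver and 0% in colon, where Mat1a was listed at 0. Pygl, the glycogen phosphorylase of liver, made up 99.3% of Pygl and Pygb in liver and 7.20% in colon.

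Some pairs did not switch. Cpt1a, which admits fatty acids to mitochondria, was the larger form in both, with 98.5% of Cpt1a and Cpt1b in liver and 97.0% in colon. Acacb, an acetyl-CoA carboxylase at mitochondria, was the smaller form in both, with 42.2% of Acacb and Acaca in liver and 21.4% in colon. Hnf4a and Foxa3 were also the larger forms in both organs.

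**Figure D4:**
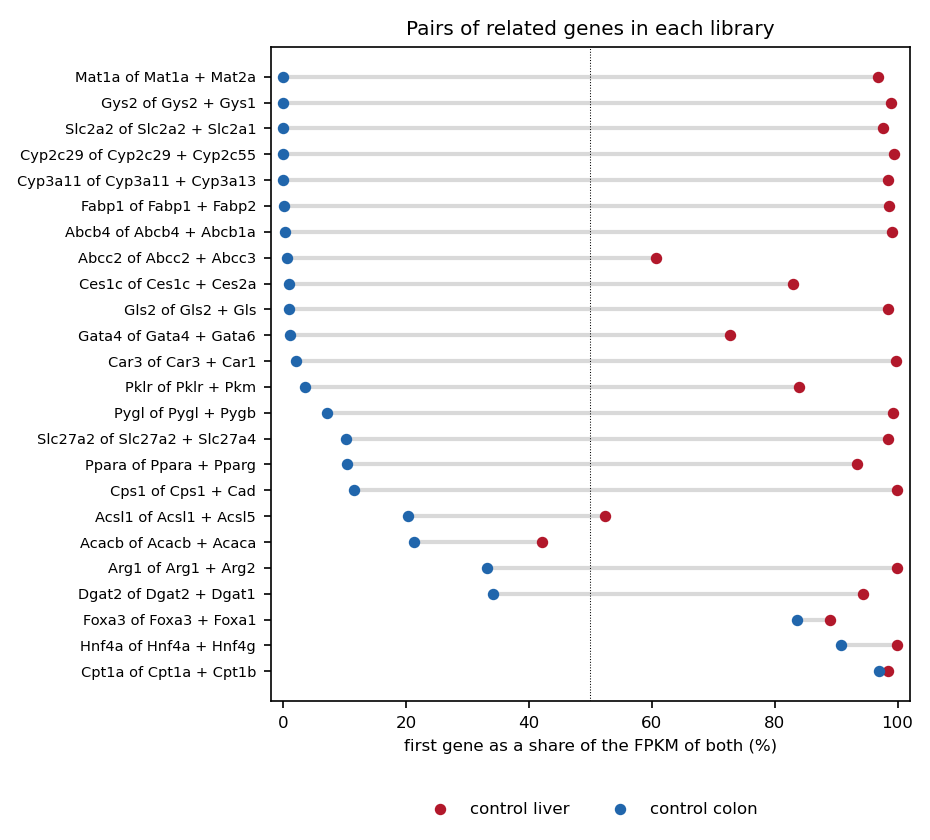
Share of the first-named gene in the FPKM of both members of 24 pairs (horizontal axis, percent) in control liver and control colon, with a grey line joining the organs and a dotted line at 50%. In 20 pairs the liver point lies to the right of the dotted line and the colon point to the left.

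Cyp2c29 and Cyp2c55 belong to 1 gene cluster on chromosome 19 and were opposite in level, so their promoters are shown together. Cyp2c29 had 665 FPKM in liver and was listed at 0 in colon. The windows, from RefSeq on GRCm38.p6 with TATAAA in capitals, lie at chr19:39286935-39287134, plus strand, for Cyp2c29 and at chr19:39006869-39007068, plus strand, for Cyp2c55.
Cyp2c29: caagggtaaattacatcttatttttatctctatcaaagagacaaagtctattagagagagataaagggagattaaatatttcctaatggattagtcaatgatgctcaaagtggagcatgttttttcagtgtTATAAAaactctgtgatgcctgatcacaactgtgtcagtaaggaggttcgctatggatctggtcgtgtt
Cyp2c55: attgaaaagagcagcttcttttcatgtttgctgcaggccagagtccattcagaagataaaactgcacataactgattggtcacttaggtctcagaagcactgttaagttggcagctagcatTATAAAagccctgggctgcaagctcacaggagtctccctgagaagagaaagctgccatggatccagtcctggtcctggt
Each held 1 match to TATAAA, at -19 in Cyp2c29 and at -29 in Cyp2c55. In the 300 bases around the start Cyp2c29 had 2 CG dinucleotides and Cyp2c55 had 0.

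Transporter genes divided by organ. Of 30 hepatocyte transporter genes 28 reached the minimum, of which 25 were at least 4-fold higher in liver and none at least 4-fold higher in colon, with a median log2 ratio of 4.05. Slco1b2, an uptake carrier of organic anions, had 378 FPKM in liver and was listed at 0 in colon. Slc10a1, which takes up bile salts from blood, had 165 FPKM in liver and was listed at 0 in colon. Abcb11, which pumps bile salts into bile, had 144 FPKM in liver and was listed at 0 in colon. Slc2a2, the glucose carrier GLUT2, had 90.8 FPKM in liver and was listed at 0 in colon.

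Ion and nutrient carriers of colonocytes ran the other way. Of 33 members 29 reached the minimum, of which 25 were at least 4-fold higher in colon and 3, Aqp8, Abcg2 and Slc4a4, within 2-fold, with a median log2 ratio of -4.64. Slc26a3, the chloride and bicarbonate exchanger of the apical membrane, had 0.0188 FPKM in liver and 188 FPKM in colon. Slc6a14, a carrier of neutral and basic amino acids, was listed at 0 in liver and had 161 FPKM in colon. Aqp8, a water channel, was high in both, with 142 FPKM in liver and 243 FPKM in colon.

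Solute carriers as a whole divided between the organs. Of 390 Slc genes 170 reached the minimum, of which 37 (21.8%) were at least 4-fold higher in liver, 51 (30.0%) at least 4-fold higher in colon and 52 (30.6%) within 2-fold. Over all genes compared these shares were 8.14%, 20.2% and 41%. Relative to the median gene 48 were at least 4-fold higher in liver and 33 at least 4-fold higher in colon. Their median log2 ratio was -0.67, which relative to the median gene became 0.27, so its direction depends on the scaling. Of 28 ABC transporters 9 were at least 4-fold higher in liver and 4, Abca7, Abcb1a, Abcb1b and Abcc1, at least 4-fold higher in colon, the last count being 1 relative to the median gene. Abcb4, which exports phospholipid into bile, had 38.6 FPKM in liver and 0.282 FPKM in colon. Abcb1a, the drug pump P-glycoprotein, had 0.329 FPKM in liver and 105 FPKM in colon. Aqp9, a glycerol and water channel, had 115 FPKM in liver and 0.126 FPKM in colon. Aqp4, a water channel, had 0.557 FPKM in liver and 78.0 FPKM in colon. Of the intracellular fatty acid carriers, Fabp1 had 6860 FPKM in liver and 0.420 FPKM in colon, while Fabp2 had 92.6 FPKM in liver and 253 FPKM in colon.

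The promoters of Slc26a3 and Krt20, which encodes a keratin of mature gut epithelium, are shown as colon counterparts of the liver promoters above, with the same letters in capitals. They lie at chr12:31438069-31438268, plus strand, for Slc26a3 and at chr11:99438104-99438303, minus strand, for Krt20, from RefSeq on GRCm38.p6.
Slc26a3: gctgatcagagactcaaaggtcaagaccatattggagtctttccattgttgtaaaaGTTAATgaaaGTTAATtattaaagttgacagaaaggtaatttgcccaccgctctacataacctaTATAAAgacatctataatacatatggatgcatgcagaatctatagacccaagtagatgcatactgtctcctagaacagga
Krt20: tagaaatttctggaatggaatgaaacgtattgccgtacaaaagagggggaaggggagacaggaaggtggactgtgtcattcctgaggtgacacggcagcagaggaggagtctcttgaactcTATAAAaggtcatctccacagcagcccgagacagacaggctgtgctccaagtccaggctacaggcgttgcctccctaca
Slc26a3 held 2 copies of GTTAAT, beginning at -94 and at -84, and TATAAA at -30. Krt20 held TATAAA at -29, was listed at 0 in liver and had 133 FPKM in colon.

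Transcription factors gave a graded picture, with some shared and others near 0 in 1 of the organs. Of 20 liver-enriched factor genes 17 reached the minimum, of which 10 were at least 4-fold higher in liver, none at least 4-fold higher in colon and 5 within 2-fold. Creb3l3, a factor of the fasting and acute phase response, had 70.7 FPKM in liver and 0.799 FPKM in colon. Nr1i3, the xenobiotic receptor CAR, had 49.7 FPKM in liver and 1.27 FPKM in colon. Nr0b2, the repressor SHP of bile acid synthesis, had 31.2 FPKM in liver and was listed at 0 in colon. Prox1, needed for hepatocyte growth in the embryo, had 11.3 FPKM in liver and 0.424 FPKM in colon. Onecut2 had 7.10 FPKM in liver and was listed at 0 in colon. The bile acid receptor Nr1h4 was high in both, with 45.6 FPKM in liver and 27.6 FPKM in colon. Ppara, the receptor that drives fat oxidation, had 25.4 FPKM in liver and 3.55 FPKM in colon, while Pparg had 1.77 FPKM in liver and 30.5 FPKM in colon.

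Factors of the gut endoderm common to both organs lay close together. Of 6 genes 4 were within 2-fold, and the median log2 ratio of -0.76 became 0.18 relative to the median gene, so its direction depends on the scaling. Hnf4a had 54.6 FPKM in liver and 74.2 FPKM in colon. Nr5a2, a nuclear receptor of bile acid and steroid metabolism, had 11.9 FPKM in liver and 11.5 FPKM in colon. Foxa3, a forkhead factor, had 13.3 FPKM in liver and 24.6 FPKM in colon. Hnf4g was the member at least 4-fold higher in colon, with 0.0441 FPKM in liver and 7.46 FPKM in colon.

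Intestinal factors were all on the colon side. Of 22 genes 15 reached the minimum, and all 15 were at least 4-fold higher in colon, with a median log2 ratio of -4.74. Relative to the median gene 14 were at least 4-fold higher in colon. Of the 22 genes, 13 were listed at 0 in liver, where the filter sets the class of a gene kept. Cdx1, the partner of Cdx2, was listed at 0 in liver and had 41.1 FPKM in colon. Elf3, an epithelial ETS factor, had 0.214 FPKM in liver and 84.7 FPKM in colon. Klf4, a factor of differentiated epithelium, had 0.259 FPKM in liver and 55.0 FPKM in colon. Spdef and Atoh1, which direct goblet cell fate, were listed at 0 in liver and had 42.7 FPKM and 25.7 FPKM in colon. Vdr, the vitamin D receptor, was listed at 0 in liver and had 26.9 FPKM in colon.

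Hox genes, which mark position along the body axis, were found in colon. Of 39 Hox genes 7 reached the minimum, all 7 at least 4-fold higher in colon and all 7 listed at 0 in liver, with 4 of them 4-fold higher in colon relative to the median gene. These 7 passed the minimum through colon alone, so the filter set their 4-fold class as deposited. Hoxb13, a posterior member, had 134 FPKM in colon, and the other 6 lay between 5.51 FPKM (Hoxb9) and 10.5 FPKM (Hoxa10). Hoxa13 had 7.79 FPKM and Hoxd13 had 5.95 FPKM in colon. Over all 39 genes the summed level was 0.637 FPKM in liver and 208 FPKM in colon.

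**Figure D5:**
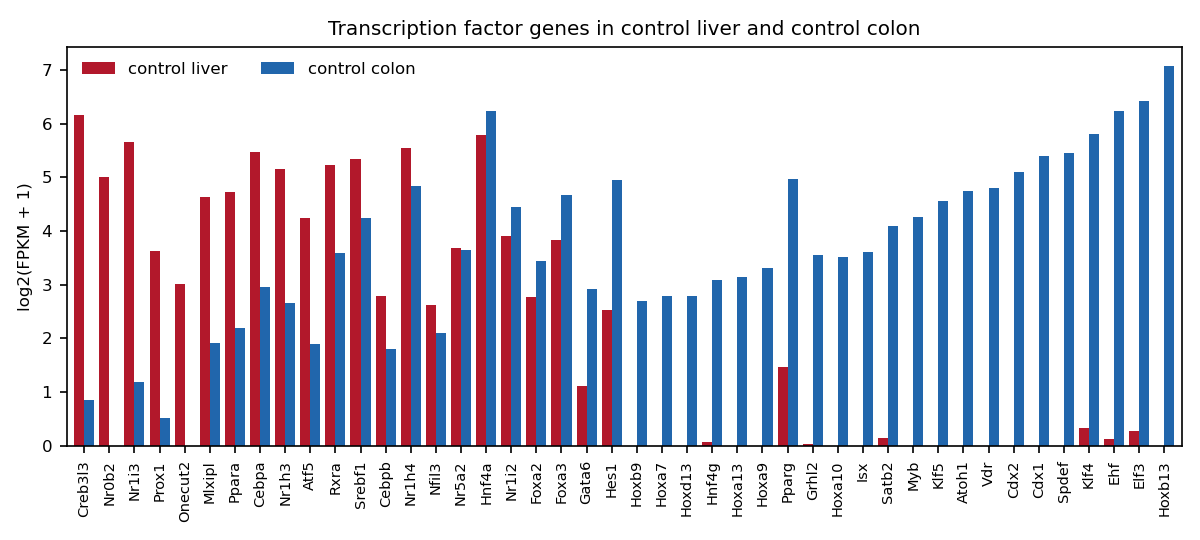
Level of the transcription factor genes at or above 5 FPKM, as log2(FPKM + 1) (vertical axis), with a bar for control liver and a bar for control colon, ordered from the highest log2 ratio to the lowest. Creb3l3 and Nr1i3 stand high in liver alone, Hnf4a and Nr5a2 have bars of like height, and Hoxb13 and Elf3 stand high in colon alone.

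Structural genes of the gut epithelium were higher in colon, with a minority shared. Of 20 junction and brush border genes 17 were at least 4-fold higher in colon and 1, the desmosome gene Dsg2, within 2-fold, with a median log2 ratio of -6.59. Krt19, a keratin of simple epithelia and bile ducts, had 0.341 FPKM in liver and 985 FPKM in colon. Lgals4, a galectin of the gut lining, had 1.75 FPKM in liver and 1501 FPKM in colon. Keratins Krt8 and Krt18 form the filaments of hepatocytes too. Krt8 had 70.2 FPKM in liver and 1655 FPKM in colon. Krt18 had 98.7 FPKM in liver and 321 FPKM in colon. Among claudins, the sealing proteins of tight junctions, 1 was at least 4-fold higher in liver, 6 at least 4-fold higher in colon and 3 within 2-fold. Cldn1 had 30.8 FPKM in liver and 0.393 FPKM in colon. Cldn7 had 0.305 FPKM in liver and 186 FPKM in colon.

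Genes of dividing cells were also higher in colon. Of 18 cell cycle genes at the minimum, 13 were at least 4-fold higher in colon and none in liver, with a median log2 ratio of -3.09. Relative to the median gene 10 were at least 4-fold higher in colon. Top2a, which untangles chromosomes, had 0.308 FPKM in liver and 25.7 FPKM in colon. Pcna, the sliding clamp of DNA replication, had 14.6 FPKM in liver and 59.0 FPKM in colon. Of 14 stem cell and Wnt target genes 5 reached the minimum, 3 of them at least 4-fold higher in colon as deposited and 1 relative to the median gene. Notum, which inactivates Wnt ligands, was the exception at least 4-fold higher in liver, with 8.11 FPKM in liver and 0.165 FPKM in colon.

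The colon library also carried the muscle and connective tissue of the gut wall. Of 19 smooth muscle genes at the minimum 17 were at least 4-fold higher in colon and 2 within 2-fold, with a median log2 ratio of -5.15. Actg2, the enteric smooth muscle actin, was listed at 0 in liver and had 399 FPKM in colon. Acta2, the vascular form, had 0.354 FPKM in liver and 357 FPKM in colon. Of 13 fibroblast and matrix genes 10 were at least 4-fold higher in colon as deposited and 8 relative to the median gene. Col3a1, a fibrillar collagen, had 5.57 FPKM in liver and 148 FPKM in colon. Fn1, fibronectin, which hepatocytes release into plasma, was the member at least 4-fold higher in liver, with 189 FPKM in liver and 29.6 FPKM in colon. The smooth muscle list summed to 54.5 FPKM in liver and 3282 FPKM in colon. How far the share of muscle in the tissue taken set the other colon values was not tested.

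Nerve, immune and vascular markers gave smaller values. Of 15 enteric neuron genes 3 reached the minimum, all at least 4-fold higher in colon, led by Vip, the vasoactive peptide, which was listed at 0 in liver and had 14.1 FPKM in colon. All 3 were listed at 0 in liver, so the filter set their class, and relative to the median gene 2 were 4-fold higher in colon. None of 14 T and NK cell genes and none of 7 enteric glia genes reached the minimum. Jchain, which joins secreted antibodies, had 0.379 FPKM in liver and 315 FPKM in colon. Of 6 Kupffer cell genes 4 were at least 4-fold higher in liver. Clec4f, a lectin of Kupffer cells, the resident macrophages of liver, had 33.4 FPKM in liver and was listed at 0 in colon. General macrophage genes had 6 of 9 within 2-fold, and their median log2 ratio of -0.18 became 0.76 relative to the median gene, so its direction depends on the scaling. C1qa, a complement component of macrophages, had 29.7 FPKM in liver and 33.9 FPKM in colon. Of 9 genes of the liver sinusoidal endothelium 4 were at least 4-fold higher in liver and 4 within 2-fold. Stab2, a scavenger receptor there, had 13.7 FPKM in liver and 0.193 FPKM in colon. MHC class II genes, which present antigen, had 4 of 5 at least 4-fold higher in colon as deposited and 0 of 5 relative to the median gene, where their median log2 ratio was -1.16. Of these, Cd74 had 30.6 FPKM in liver and 129 FPKM in colon.

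Markers of organs next to the colon were checked as well. Of 22 pancreatic acinar genes 10 reached the minimum, all at least 4-fold higher in colon, led by Zg16 and Sycn, which gut cells also make. Relative to the median gene 7 of the 10 were at least 4-fold higher in colon. Clps, pancreatic colipase, was listed at 0 in liver and had 72.3 FPKM in colon. The list summed to 29.5 FPKM in liver and 5030 FPKM in colon, of which Zg16 and Sycn gave 3236 FPKM and 1485 FPKM in colon. Cela1, an elastase gene, had 28.5 FPKM in liver and 147 FPKM in colon. Ctrb1, chymotrypsinogen, and Pnlip, pancreatic lipase, were listed at 0 in liver and had 10.8 FPKM and 9.73 FPKM in colon. In colon 2 of the 22 genes, Prss1 and Try10, were listed at 0. Among 12 seminal vesicle and prostate genes only Spink1, a trypsin inhibitor of several organs, was above 0 in these libraries, listed at 0 in liver and with 456 FPKM in colon. Of 12 adipocyte genes 5 reached the minimum, of which 3, Adipoq, Cfd and Fabp4, were at least 4-fold higher in colon, 1 relative to the median gene. Of the others, Lpl lay within 2-fold and Pck1 was higher in liver. Adipoq, the defining hormone of fat cells, was listed at 0 in liver and had 5.31 FPKM in colon. The part of these cells in the colon values was not tested. Hemoglobin and other erythroid genes, a sign of blood in the tissue, summed to 961 FPKM in liver and 322 FPKM in colon.

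The shared genes were led by energy metabolism and protein synthesis. COX1, a subunit of cytochrome oxidase encoded by mitochondrial DNA, had 5861 FPKM in liver and 9531 FPKM in colon. Eef1a1, an elongation factor of translation, had 1793 FPKM in liver and 3025 FPKM in colon. Over all genes compared 41% lay within 2-fold as deposited and 58.4% relative to the median gene. All 13 protein genes of mitochondrial DNA lay within 2-fold, with a median log2 ratio of -0.19. Relative to the median gene 9 of the 13 did, and their median was 0.75. Of 80 nuclear-encoded respiratory chain genes 76 lay within 2-fold, with a median log2 ratio of -0.27. Relative to the median gene 64 of the 80 did, and their median was 0.67. Exceptions included Cox7a1, the muscle form of a cytochrome oxidase subunit, with 4.47 FPKM in liver and 64.9 FPKM in colon. As deposited, Ndufa4 was the only member over 2-fold higher in liver, with 635 FPKM in liver and 283 FPKM in colon. Of 37 proteasome genes 36 lay within 2-fold, and of 26 genes for protein folding and export from the endoplasmic reticulum 23 did. Their medians of -0.18 and -0.48 also became positive, 0.76 and 0.46, relative to the median gene. On that scale 28 of the 37 and 22 of the 26 lay within 2-fold. Calr, a folding chaperone of that compartment, had 252 FPKM in liver and 245 FPKM in colon.

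Ribosomal protein genes formed a uniform group displaced towards colon. Of 79 genes 68 were between 2-fold and 4-fold higher in colon and 11 lay within 2-fold, with a median log2 ratio of -1.36. Relative to the median gene their median was -0.42, with 77 within 2-fold. They held 4.80% of the protein-coding FPKM in liver and 14.3% in colon. Rplp0, of the ribosomal stalk, had 262 FPKM in liver and 1040.5 FPKM in colon. Translation factors lay nearer, with 34 of 60 within 2-fold and a median log2 ratio of -0.89. Relative to the median gene 52 of the 60 were within 2-fold and the median was 0.05. Citric acid cycle genes had 12 of 18 within 2-fold and a median of -0.49. Relative to the median gene 13 of the 18 were within 2-fold and the median was 0.45. Of their members Idh3a, a subunit of isocitrate dehydrogenase, stood apart with 6.65 FPKM in liver and 43.8 FPKM in colon.

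Some genes biased to an organ lay beside each other in runs of 4 or more, counted among the genes compared, and many neighbours are copies of each other. The longest liver run held 22 genes on chromosome 4, 20 of the Mup list with Mup-ps12 and Mup-ps16, which that list does not hold (60066469 to 62150841, GRCm38), with a summed level of 60544 FPKM in liver and 0 FPKM in colon. A run of 12 serine protease inhibitor genes on chromosome 12 (103616675 to 104414334), among them Serpina1c and Serpina3k, summed to 23944 FPKM in liver and 7.32 FPKM in colon. A run of 4 apolipoprotein genes on chromosome 9 (46228630 to 46271921), with Apoa1 and Apoc3, summed to 7774 FPKM in liver and 0.256 FPKM in colon. A run of 5 genes on chromosome 7 (19671579 to 19701310), Gm44805, Apoc2, Apoc4, Apoc1 and Apoe, summed to 14505 FPKM in liver and 178 FPKM in colon.

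Colon runs were of other kinds. On chromosome 13 a run of 23 histone genes (21715711 to 22043658) summed to 153 FPKM in liver and 3428 FPKM in colon. Replication-dependent histone genes are active in dividing cells, their copies are near identical, and the split of reads among them is uncertain. The 4 neighbouring Hoxa genes on chromosome 6 (52215623 to 52260880) formed a run that was listed at 0 in liver and summed to 33.2 FPKM in colon. The Clca genes on chromosome 3 (144780581 to 145032776) summed to 0.0495 FPKM in liver and 3984 FPKM in colon, nearly all of it Clca1. Guca2a and Guca2b, whose peptides regulate fluid secretion, lay in a run on chromosome 4 (119637732 to 120570276) that summed to 0.646 FPKM in liver and 1429 FPKM in colon.

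Promoters differed between the classes in composition. A RefSeq promoter of 300 bases (250 before and 50 after the start) was found for 529 of 689 genes higher in liver, 1352 of 1711 higher in colon and 2825 of 3469 within 2-fold. The letters GTTAAT on either strand were in 14.9% of promoters of genes at least 4-fold higher in liver, 4.96% of those at least 4-fold higher in colon and 3.96% of those within 2-fold, against 4.83% of 6850 promoters of the genes compared and 6.28% of 17519 promoters of all protein-coding genes. Among plasma carrier and acute phase genes 12 of 27 promoters held them, which is 44.4%, and 26 of the 27 had 5 or fewer CG dinucleotides. This was the highest of the lists searched. The others were coagulation with 5 of 21, mucus with 0 of 10, colonocyte transport with 1 of 19, smooth muscle with 1 of 15 and ribosomal proteins with 3 of 59. TATAAA on either strand was in 18.5%, 13.2% and 5.98% of promoters of liver, colon and shared genes, against 8.53% of the genes compared and 13.3% of all protein-coding genes. GGGCGG, the GC box, was in 36.9%, 60.7% and 67.0% of them, against 64.5% of the genes compared and 46.3% of all protein-coding genes. The search also covered a site for CDX factors, a half-site for HNF4 factors and the CArG box. In liver, colon and shared promoters the CDX site was in 5.1%, 2.74% and 2.69%, against 2.99% of the genes compared. Its share was thus higher in liver than in colon promoters. The HNF4 half-site was in 2.27%, 0.592% and 0.283%, against 0.599%. The CArG box was in 1.89%, 2.59% and 1.1%, against 1.55%. Promoters poor in CG, with 5 or fewer CG dinucleotides, were 48.4% of the liver, 19.7% of the colon and 5.03% of the shared genes, against 11.5% of the genes compared and 32.7% of all protein-coding genes. Within such CG-poor promoters GTTAAT was in 21.9% of 256 liver, 11.7% of 266 colon and 10.6% of 142 shared promoters, against 14.2% of 789 among the genes compared. In the same CG-poor promoters TATAAA was in 25.8%, 25.6% and 17.6%, against 22.9%, so liver and colon were nearly equal there. A match to letters this short is a description of the sequence and not a bound site.

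The organ differences were then read in the liver and colon of the other 3 groups, which share no library with the control pair. Of the 689 genes at least 4-fold higher in control liver, 590 (85.6%) were so in NASH, 596 (86.5%) with EVs at the low dose and 608 (88.2%) at the high dose. Of the 1711 genes at least 4-fold higher in control colon, 910 (53.2%) were so in NASH, 1018 (59.5%) at the low dose and 1081 (63.2%) at the high dose. Of the 3469 genes within 2-fold, 3135 (90.4%), 3080 (88.8%) and 3081 (88.8%) stayed within it. The median gene stood at -0.37 in NASH, -0.51 at the low dose and -0.55 at the high dose, against -0.94 in control. With each organ pair taken relative to its own median, the control classes held 967 genes higher in liver and 890 higher in colon. Of those 967 genes, 76.0%, 80.2% and 81.7% were again at least 4-fold higher in liver. Of those 890 genes, 68.8%, 74.5% and 74.3% were again at least 4-fold higher in colon.

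The medians of the lists in the other groups differed by kind. In control the medians of mucus, intestinal factor and major urinary protein genes fell on genes at 0 in 1 organ. Mucus genes had medians of -5.77 in NASH, -5.32 at the low dose and -5.28 at the high dose, against -5.45 in control. Intestinal factors had -5.15, -4.97 and -5.12 in the same order, against -4.74 in control. The cell cycle median was -0.26, -0.41 and -0.45, against -3.09 in control. The macrophage median was 2.47, 1.67 and 2.02, against -0.18 in control. The fibroblast and matrix median was -0.19, -0.32 and -1.17, against -3.76 in control. Col3a1 had 79.5 FPKM in NASH liver, 61.8 FPKM at the low dose and 58.0 FPKM at the high dose, against 5.57 FPKM in control liver. Major urinary proteins had medians of 4.56 in NASH, 5.97 at the low dose and 7.10 at the high dose, against 11.01 in control. At least 4-fold apart in control and within 2-fold in the other 3 groups were 131 genes. They were 5 of the 689 higher in control liver and 126 of the 1711 higher in control colon. These counts are as deposited. None was made relative to the median gene, which was displaced less towards colon in the other 3 groups. The 5, named after their values were seen, were Suox, Kyat1, Aspg, Ppp1r3c and Hsd3b5. Hsd3b5, a steroid enzyme of male mouse liver, had 0.160 FPKM in NASH liver, 0.124 FPKM at the low dose and 0.816 FPKM at the high dose, against 182 FPKM in control liver. Each group is again 1 library per organ, so differences between groups cannot be told apart from differences between animals or libraries.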

How the data were processed

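RNA of liver and colon was measured by sequencing in 8 libraries, 1 for each organ in 4 groups, grouped by their titles. Values are FPKM as deposited by the authors in 1 table of 45777 gene identifiers, of which 45679 matched symbols of GRCm38.p6 and 98 did not. Per the labels, extraction used TRIzol with RNeasy Plus columns, and library preparation used Illumina's stranded total RNA Gold chemistry. Trimmomatic 0.38, HISAT2, StringTie and mm10 are named, without role or order, per the submitters' processing notes. Neither read depth nor pooling of animals is stated in these sources.

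Protein-coding genes with 5 FPKM or more in control liver or control colon were kept, and log2 ratios used a pseudocount of 1 FPKM. With 1 library per organ no test was run. Genes were counted as apart at 4-fold and as shared within 2-fold. The members, the 65 gene lists, the pairs and the rule for naming genes were chosen with earlier results of these data known. Genes were named from the 12 largest and 12 smallest ratios, the 12 highest in each library, the 12 highest shared genes, up to 6 members per list, both members of pairs and the transcription factors. Genes that make up a count of 5 or fewer, and Cyp2c65, Ces2c, Mgst3, Ctrb1, Pnlip, Prss1, Try10, Mup-ps12 and Mup-ps16 where they are described, were named after their values were seen. Of the list members, 4 were taken by ratio and 2 by level. Alternatives changed the pseudocount, the filter, the scaling and the biotypes. Promoters were taken from the RefSeq table, 1 per gene, and motifs searched on both strands. Near-identical families are uncertain in such a table. Some genes of the lists and pairs are not reported here by name. Scripts used Python 3.11.15, numpy 2.4.6, pandas 2.3.3 and matplotlib 3.10.9, and were tested on simulated data.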

Additional observations from a re-analysis of the deposited data

Results flagged for a closer look

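Among the 689 genes at least 4-fold higher in control liver and the 1711 higher in control colon, 2 crossed over. Both were higher in control colon and at least 2-fold apart the other way in each of the other 3 pairs. Relative to the median gene both were under 4-fold apart in control. This difference between groups was not tested. Ccnd1, which encodes cyclin D1, had a log2 ratio of 2.10 in NASH, 1.83 with EVs at the low dose and 1.66 at the high dose, against -2.48 in control. Its level was 72.4 FPKM in NASH liver, 56.1 FPKM at the low dose and 55.2 FPKM at the high dose, against 2.01 FPKM in control liver. In colon it was 16.1 FPKM in NASH, 15.1 FPKM at the low dose and 16.8 FPKM at the high dose, against 15.9 FPKM in control. Haus8, a subunit of the spindle complex augmin, had a log2 ratio of 2.35 in NASH, 1.80 at the low dose and 1.45 at the high dose, against -2.05 in control. Each ratio rests on 1 library per organ.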

How the results depend on the processing

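No paired analysis was possible because each organ and group has 1 library, and no library could be left out for the same reason. The number of genes at least 4-fold higher in colon was 1711 and became 710 with a pseudocount of 5 FPKM and 890 relative to the median gene. The number within 2-fold was 3469 and became 5779 with a minimum of 1 FPKM, 2080 with a minimum of 10 FPKM and 15088 with no minimum. Of gene lists, 39 had a median at least 4-fold from 0, and 24 with no minimum. Genes 4-fold apart in control and in all 3 other groups the same way numbered 1440, and 799 with a pseudocount of 5 FPKM. Of genes 4-fold apart, 28.7% were higher in liver, against 52.1% relative to the median gene, 43.8% with median-of-ratios scaling, 42.4% with a pseudocount of 5 FPKM and 24.8% with equal sums. Of 252 named genes 4-fold apart, 206 to 252 remained so on the same side in the 8 alternatives run on them. These genes were named in part for large ratios, and none of these settings could change the sign of a gene 4-fold apart. A minimum does not alter a ratio, so the 234 left with a minimum of 10 FPKM were those not dropped by it. The number at least 4-fold higher in liver was 689 and ranged from 522 to 967. Depth is unknown, so genes listed at 0 have no upper limit.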
